A study of Mus musculus with 14 samples.

Results

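CC chemokines are small secreted proteins that guide immune cells, and 10 of their genes were followed here across the cell classes of the mouse spinal cord: Ccl2, Ccl3, Ccl4, Ccl5, Ccl6, Ccl7, Ccl8, Ccl9, Ccl12 and Ccl24. The genes were chosen by symbol, and all 10 were found among the 55335 genes of the deposited single-cell count matrices. The study asks how the myeloid receptor gene Clec7a bears on microglial immune responses in a model of amyotrophic lateral sclerosis (ALS). The 14 libraries were made from whole spinal cords of mice at postnatal days P115 to P120, in 4 groups. The group nTg (3 libraries) carried neither alteration named below, and its strain background is not given in the sources used here. The group Clec7a-KO (4 libraries) carried the knockout allele of the strain B6.129S6-Clec7atm1Gdb/J. The group SOD1G93A (3 libraries) carried the mutant human SOD1 transgene of the strain B6SJL-Tg(SOD1*G93A)1Gur/J, and the group SOD1G93A/Clec7a-KO (4 libraries) carried both alterations. The knockout is a germline allele, so every cell class of the knockout groups carried it, and the strain labels name different backgrounds for the 2 parent lines. A library is named below by its group and its replicate number (SOD1G93A_1), and the labels do not say whether each library is a separate animal, so p-values measure only the spread between these libraries.

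CC chemokines carry 2 adjacent cysteines near the start of the mature protein and act on receptors of the Ccr family. Ccl2, Ccl7, Ccl8 and Ccl12 belong to the monocyte chemoattractant branch, in which Ccl2, Ccl7 and Ccl12 act on Ccr2 and draw monocytes out of the blood. Ccl3, Ccl4 and Ccl5 are inflammatory chemokines, of which Ccl3 and Ccl5 act on Ccr1, and Ccl5 is a typical product of activated T and NK cells. Ccl6 and Ccl9 are rodent chemokines that act on Ccr1, and Ccl24 is an eotaxin that acts on Ccr3 and draws eosinophils. Microglia, the resident macrophages of the cord, and border-associated macrophages, which sit along its vessels and meninges, are both known sources of these genes.

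All members other than Ccl24 lie on chromosome 11 in the GENCODE vM21 annotation of GRCm38, where each is a protein-coding gene. One block of 81.2 kb holds Ccl2 (chr11:82035571-82037453), Ccl7 (chr11:82045712-82047525), Ccl12 (chr11:82101845-82103400) and Ccl8 (chr11:82115185-82116799), all on the plus strand. A second block of 139 kb, 1409 kb further along, holds Ccl5 (chr11:83525778-83530518), Ccl9 (chr11:83572919-83578636), Ccl6 (chr11:83587882-83593087) and Ccl3 (chr11:83647844-83649355) on the minus strand, and Ccl4 (chr11:83662584-83664683) on the plus strand. Ccl24 lies on the minus strand of chromosome 5 (chr5:135569937-135573049).

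The RefSeq promoter table (build GRCm38.p6) held 5 of the 10 members, namely Ccl3, Ccl6, Ccl8, Ccl9 and Ccl12. The 100 bases before each RefSeq start are shown because these 5 genes take in both blocks, 4 genes that were higher in SOD1G93A microglia and 1 that was not (Ccl12). Each is written 5′ to 3′ on the gene's own strand, with motif matches in capitals.
Ccl12 (chr11:82101745-82101844, plus strand): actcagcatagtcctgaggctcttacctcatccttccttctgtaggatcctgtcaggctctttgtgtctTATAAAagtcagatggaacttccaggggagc
Ccl8 (chr11:82115085-82115184, plus strand): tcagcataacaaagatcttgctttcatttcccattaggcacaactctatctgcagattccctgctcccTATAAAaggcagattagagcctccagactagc
Ccl9 (chr11:83578637-83578736, minus strand): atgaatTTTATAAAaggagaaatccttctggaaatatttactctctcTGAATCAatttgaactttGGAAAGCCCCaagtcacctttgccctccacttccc
Ccl6 (chr11:83593088-83593187, minus strand): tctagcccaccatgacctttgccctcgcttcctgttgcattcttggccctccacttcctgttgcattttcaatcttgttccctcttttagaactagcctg
Ccl3 (chr11:83649379-83649478, minus strand): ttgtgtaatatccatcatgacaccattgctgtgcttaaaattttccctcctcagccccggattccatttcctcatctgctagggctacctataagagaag

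Matches were sought on both strands for the NF-kB consensus, AP-1 (TGANTCA), the interferon element (GAAA, any 2 bases, then GAAA), PU.1 (GAGGAAGT) and the TATA box (TATAAA). Ccl12 and Ccl8 held TATAAA ending 26 and 27 bases before the start. Ccl9 held an NF-kB match, an AP-1 match and TATAAA on both strands, of which the 2 TATAAA matches overlap and form the first run of capitals. The stretches of Ccl6 and Ccl3 held none of these letters. Over all 27025 promoters of 300 bases in the table, 4.35% held the NF-kB match, 7.93% AP-1, 3.49% the interferon element, 3.28% PU.1 and 14.2% TATAAA. These matches describe the letters and do not show binding.

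The libraries held 108892 barcodes with 28819852 to 141204910 unique molecular identifiers (UMIs) each, of which 90018 were kept as cells (2566 to 10312 per library). Pairs of libraries shared 2 to 44 barcodes. Classes are clusters rebuilt here without the CC chemokine genes and named from marker genes; the names below stand for "X-like" clusters and can differ from the classes of the study. An unnamed cluster of 2234 shallow cells held microglia, myelin and blood-cell genes, and another of 3753 cells held endothelial and mural genes. Xist, the RNA of the inactive X chromosome, was high in 4 libraries (nTg_1, nTg_3, Clec7a-KO_3 and SOD1G93A/Clec7a-KO_4) and in none of the 3 SOD1G93A libraries. The labels also number the libraries from 1 to 16, and numbers 13, 15 and 16 (SOD1G93A/Clec7a-KO_3, SOD1G93A/Clec7a-KO_4 and Clec7a-KO_4) stood apart in the ratio of Ccl4 to Ccl3, as described below.

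Levels are given on 2 scales. CPM are UMIs per 1000000 UMIs of the class in that library, and normalised CPM are the same after edgeR's TMM scaling. The 3′ UMI counts are not divided by gene length, so levels are compared between libraries and classes for 1 gene at a time. Clec7a, the targeted gene, was read first in microglia. Its normalised CPM were 46.1, 28.9 and 86.4 in nTg, 893, 1039 and 1040 in SOD1G93A, 0.801, 2.56, 1.27 and 1.31 in Clec7a-KO, and 2.08, 3.52, 3.04 and 3.78 in SOD1G93A/Clec7a-KO. All 8 libraries of the knockout groups lay below all 6 others, so the labels matched the gene. Sod1, whose counts here may include the human transgene, was at 67.0 ± 21.4 normalised CPM in nTg (SD, n = 3) and 64.8 ± 22.6 in Clec7a-KO (n = 4), against 2101 ± 451 in SOD1G93A (n = 3) and 2736 ± 392 in SOD1G93A/Clec7a-KO (n = 4).

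Microglia held nearly all UMIs of 6 members and a smaller share of the other 4. Over the 14 libraries, 98.1% ± 0.940 (SD) of the Ccl4 UMIs, 97.8% ± 1.13 of Ccl3, 95.9% ± 2.82 of Ccl9, 95.7% ± 1.76 of Ccl12, 95.0% ± 2.23 of Ccl2 and 94.0% ± 5.51 of Ccl6 lay in microglia. The microglial share was 71.1% ± 12.4 for Ccl24, 65.0% ± 22.0 for Ccl5, 57.0% ± 27.9 for Ccl8 and 52.8% ± 17.3 for Ccl7. Border-associated macrophages held most of the rest for Ccl7 (42.1% ± 18.6), Ccl8 (37.3% ± 30.6) and Ccl24 (24.0% ± 12.7), though this class counted only 554 cells. T and NK cells (732 cells) held most of the rest for Ccl5 (31.7% ± 21.1). These shares mix the number of cells of a class with the level per cell: microglia made up 31.4% ± 3.53 of the cells in nTg and 66.0% ± 2.25 in SOD1G93A.

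Relative to all UMIs of the class, border-associated macrophages were the highest class for the monocyte chemoattractant branch and for Ccl24. Ccl7 had a median of 601 CPM there and 5.03 CPM in microglia, and the macrophage level was the higher one in 14 of 14 libraries. Ccl2 was also higher there in 14 of 14 libraries (median 714 against 153 CPM), as was Ccl24 (109 against 2.72 CPM). Ccl12 was higher in 13 of 14 libraries (957 against 307 CPM) and Ccl8 in 11 of 14 (40.3 against 0.372 CPM). For the inflammatory chemokines Ccl3 and Ccl4 the order was the other way: microglia had medians of 1869 and 3785 CPM, and the macrophages were above them in 4 and 1 of 14 libraries. Ccl6 and Ccl9 showed no steady order, with the macrophages higher in 6 and 7 of 14 libraries. Immunoglobulin and MHC class II genes (Igkc, H2-Aa) stood among the genes that led the macrophage cluster beside Mrc1 and Pf4. The class depended on the clustering. With coarser clusters (resolution 0.5), with doublets kept or with CC genes used, no cluster was named border-associated macrophages. An unnamed cluster of 680, 703 or 670 cells, in that order, was then led by the neutrophil gene S100a9 and the macrophage gene Mrc1 together.

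**Figure D1:**
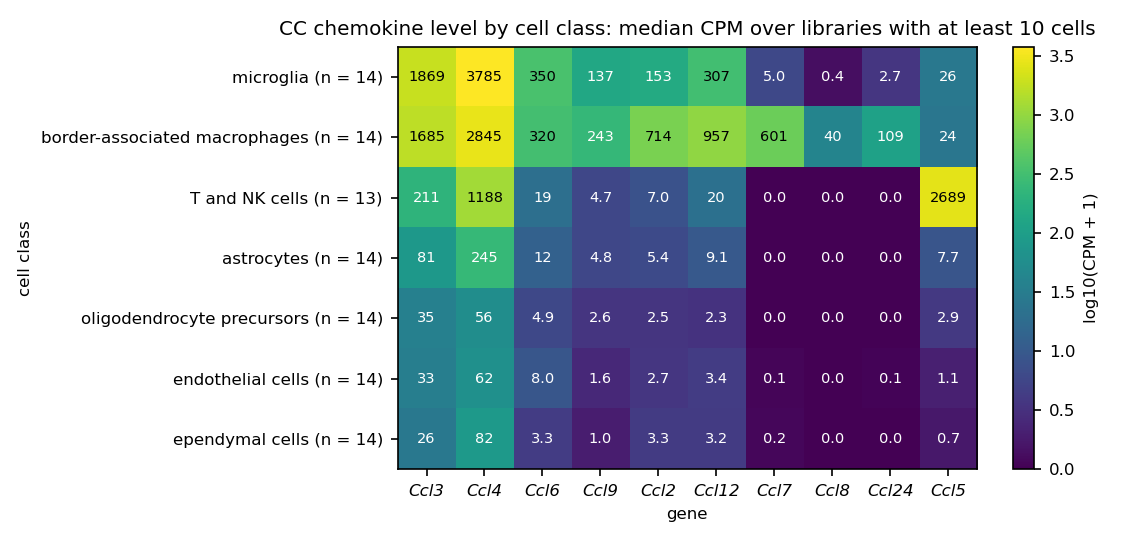
Median level of each of the 10 CC chemokine genes in 7 cell classes, in CPM, over the libraries with at least 10 cells of the class, with colour on a log10(CPM + 1) scale. Ccl3 and Ccl4 are highest in microglia, Ccl2, Ccl7, Ccl8, Ccl12 and Ccl24 in border-associated macrophages, and Ccl5 in T and NK cells.

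T and NK cells stood out for Ccl5, which had a median of 2689 CPM there (1430 to 8992 over 13 libraries) against 26.0 CPM in microglia. The T and NK level was the higher one in 13 of 13 libraries. They also held Ccl4 (1188 CPM) and Ccl3 (211 CPM), in each library below the microglia. Their Ccl5 amounted to 241 UMIs per 100 Ccl4 UMIs against 1.52 in microglia. Neutrophils could be read in 2 libraries only, where Ccl6 stood at 926 and 1272 CPM, above the microglia of the same libraries (median 149 CPM).

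Cells outside the immune system had low levels of Ccl3 and Ccl4. In each library endothelial cells had a median of 1.28% of the microglial Ccl3 level and 1.24% of the Ccl4 level, ependymal cells 1.12% and 1.56%, and oligodendrocyte precursors 1.33% and 1.30%. Astrocytes had more, at 3.92% and 4.29%. Ccl3 came to 46.7 UMIs per 100 Ccl4 UMIs in microglia, 50.2 in endothelial cells, 47.0 in ependymal cells, 48.5 in oligodendrocyte precursors and 45.8 in mural cells. The ratio of these 2 genes was near that of microglia in each of these classes, while that of other members was not always. Per 100 Ccl4 UMIs, Ccl5 came to 5.31 UMIs in oligodendrocyte precursors and 1.52 in microglia. Mural cells had 9.78 UMIs of Ccl2 and 1.60 of Ccl7 on this scale, against 3.29 and 0.0970 in microglia. Whether the UMIs came from the classes themselves or from free microglial RNA was not tested.

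Within microglia, 6 of the 10 members were higher in SOD1G93A than in nTg by edgeR's quasi-likelihood test (Benjamini-Hochberg adjusted p under 0.05), against 33.1% of the 16614 genes tested in either direction and 19.8% higher. They were Ccl3, Ccl4 and Ccl5, the Ccr1 ligands Ccl6 and Ccl9, and Ccl8. Ccl2, Ccl7, Ccl12 and Ccl24 did not pass. The median log2 fold change over the genes tested was 0.01.

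Ccl6 had the smallest adjusted p of the 10. Its normalised CPM in microglia were 139, 125 and 129 in nTg and 471, 644 and 600.2 in SOD1G93A. Every SOD1G93A library lay far above every nTg library. The fitted difference was 4.35-fold (log2 2.12 ± 0.26, SE; adjusted p = 3.3e-05). Ccl9, its neighbour on chromosome 11, had normalised CPM of 86.7, 88.4 and 93.5 in nTg and 256, 316 and 271 in SOD1G93A. These groups did not overlap either, and the difference was 3.14-fold (log2 1.65 ± 0.25, adjusted p = 0.000245). The 8 markers of monocytes and dendritic cells summed to 19.5 ± 11.1 CPM (SD, n = 3) in nTg microglia, with 4 of 8 at 1 CPM or more, and to 198 ± 25.6 CPM (n = 3) in SOD1G93A, with 2 of 8. The sum rose while fewer of the markers reached 1 CPM, so it does not describe the list as a whole. The part of these markers in the chemokine differences was not tested.

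The inflammatory chemokines Ccl3 and Ccl4 had wide spreads in the transgenic groups. Ccl3 stood at 1484, 1483 and 1400.0 normalised CPM in nTg and at 2253, 4922 and 3830 in SOD1G93A. Ccl4 stood at 3060, 2931 and 2568 in nTg and at 3244, 10178 and 8122 in SOD1G93A. SOD1G93A_1 was the lowest of its group for both, and for Ccl4 it lay just above the nTg libraries. The log2 differences were 1.33 ± 0.32 for Ccl3 (2.52-fold, adjusted p = 0.00577) and 1.33 ± 0.47 for Ccl4 (adjusted p = 0.0399). Leaving out 1 library at a time kept Ccl3 at an adjusted p of at most 0.0335. Ccl4 did not pass without SOD1G93A_2 (log2 1.00, adjusted p = 0.161), SOD1G93A_3 (0.0961), SOD1G93A/Clec7a-KO_3 (0.0559), nTg_1 (0.0828), nTg_2 (0.0935) or nTg_3 (0.108).

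Ccl5 stood at 21.8, 12.5 and 14.8 normalised CPM in nTg microglia and at 20.5, 215 and 141 in SOD1G93A. SOD1G93A_1 lay within the nTg range, and the other 2 libraries lay far above it. The log2 difference was 2.93 ± 0.73 (7.64-fold, adjusted p = 0.00723). The 9 T and NK markers summed to 2.42 CPM in nTg microglia and 1.79 CPM in SOD1G93A microglia, with at most 1 of the 9 at 1 CPM or more.

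Ccl8 was rare in microglia. nTg held 5 Ccl8 UMIs in all (1 to 3 per library) and SOD1G93A 401. The ratio of their CPM was 16.9, with a counting interval (95%) of 7.19 to 52.4. By library the normalised CPM were 0.0309, 0.0529 and 0.231 in nTg and 0.108, 3.20 and 1.54 in SOD1G93A, so SOD1G93A_1 again lay within the nTg range. The fitted log2 difference was 4.26 ± 1.48 (adjusted p = 0.0389), a size that depends on edgeR's prior count. Ccl8 did not pass without SOD1G93A_2 (log2 3.29, adjusted p = 0.135), SOD1G93A_3 (0.0626), SOD1G93A/Clec7a-KO_3 (0.0510), nTg_1 (0.143), nTg_2 (0.115) or nTg_3 (0.0581). The 8 border-associated macrophage markers summed to 103 ± 10.2 CPM (SD, n = 3) in nTg microglia, with 1 of 8 at 1 CPM or more, and to 137 ± 11.3 CPM (n = 3) in SOD1G93A, with 4 of 8. The part of that class in the Ccl8 difference was not tested.

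The Ccr2 ligands did not pass in this comparison. Ccl2 stood at 96.9, 186 and 306 normalised CPM in nTg and at 58.6, 183 and 443 in SOD1G93A, a log2 difference of 0.22 ± 0.64 (adjusted p = 0.822). The 2 groups covered much the same range. Ccl12 stood at 120, 268 and 233 in nTg and at 91.3, 400.4 and 655 in SOD1G93A (log2 0.89 ± 0.55, adjusted p = 0.234). Ccl7 stood at 0.927, 5.24 and 1.54 in nTg and at 2.59, 9.80 and 12.3 in SOD1G93A (log2 1.70 ± 0.79, adjusted p = 0.112). In all 3 genes SOD1G93A_1 was the lowest of its group, and the groups overlapped. Without it Ccl12 passed (log2 1.29, adjusted p = 0.0423), and without nTg_2 Ccl7 passed (log2 2.81, adjusted p = 0.0408). Ccl24 was near 3 normalised CPM throughout, at 3.89, 4.45 and 2.16 in nTg and 3.04, 2.42 and 2.21 in SOD1G93A (log2 −0.47 ± 0.28, adjusted p = 0.206).

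**Figure D2:**
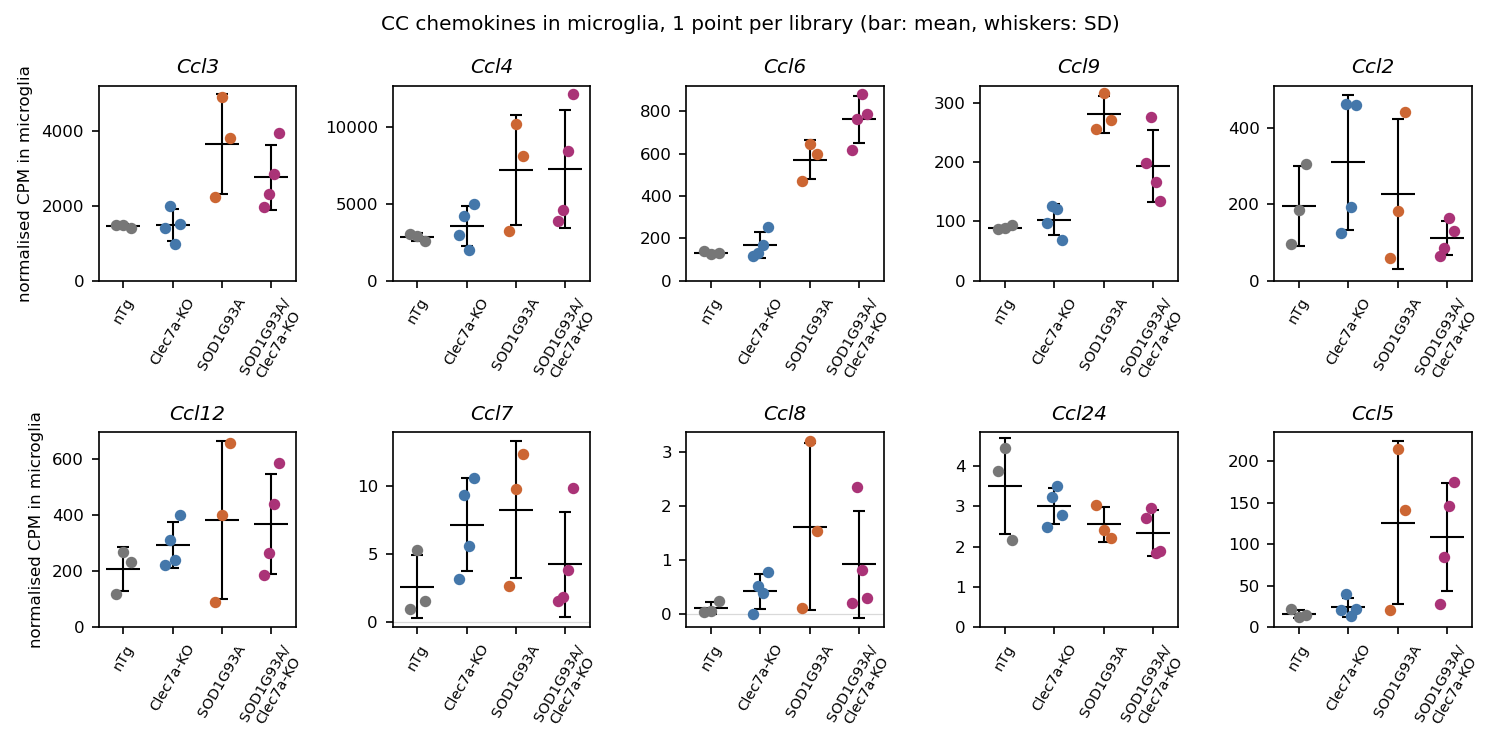
Normalised CPM of each of the 10 genes in microglia, with 1 point per library, a bar at the group mean and whiskers of 1 SD (3 nTg, 4 Clec7a-KO, 3 SOD1G93A and 4 SOD1G93A/Clec7a-KO libraries). The transgenic libraries lie above the others without overlap for Ccl6 and Ccl9, while for Ccl5 and Ccl8 SOD1G93A_1 lies among the nTg libraries.

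The comparison of SOD1G93A/Clec7a-KO with Clec7a-KO shares no library with the one above and reads the transgene in mice without Clec7a. Both come from the same fit of all 14 libraries, so the tests are not fully independent. By edgeR, 5 members were higher and 1 was lower, against 46.8% of 16614 genes in either direction, 25.7% higher and 21.0% lower. Ccl6 stood at 117, 131, 166 and 254 normalised CPM in Clec7a-KO and at 615, 764, 880.3 and 787 in SOD1G93A/Clec7a-KO. The groups did not overlap, and the difference was 4.56-fold (log2 2.19 ± 0.22, adjusted p = 3.8e-06). Ccl9 stood at 97.5, 126, 120.2 and 68.6 in Clec7a-KO and at 198, 277, 167 and 134 in SOD1G93A/Clec7a-KO. The Ccl9 groups lay close but did not overlap (log2 0.91 ± 0.22, adjusted p = 0.00351).

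Ccl3, Ccl4 and Ccl5 were higher as well, with overlapping groups. Ccl3 had 1414, 2010.3, 975 and 1524 normalised CPM in Clec7a-KO and 1959, 2314, 2844 and 3962 in SOD1G93A/Clec7a-KO (log2 0.90 ± 0.28, adjusted p = 0.0153). Ccl4 had 2981, 4191, 2007 and 4964 in Clec7a-KO and 3880.1, 4603, 8423 and 12129 in SOD1G93A/Clec7a-KO (log2 1.04 ± 0.40, adjusted p = 0.0455). The 2 highest Ccl4 libraries of SOD1G93A/Clec7a-KO and the highest of Clec7a-KO were those numbered 13, 15 and 16. Ccl5 had 20.1, 39.6, 13.9 and 21.5 in Clec7a-KO and 28.1, 85.1, 146 and 175 in SOD1G93A/Clec7a-KO (log2 2.18 ± 0.62, adjusted p = 0.00997). One SOD1G93A/Clec7a-KO library lay below the highest Clec7a-KO library. Ccl3 did not pass without SOD1G93A/Clec7a-KO_4 (log2 0.63, adjusted p = 0.0774). Ccl4 did not pass in 9 of the 14 fits that left out 1 library, namely SOD1G93A_3, SOD1G93A/Clec7a-KO_3 and _4, each nTg library, or Clec7a-KO_1, _2 or _3. Its highest adjusted p was 0.199, without SOD1G93A/Clec7a-KO_4 (log2 0.63).

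Ccl2 was the member that was lower. It stood at 125, 463, 194 and 462 normalised CPM in Clec7a-KO and at 64.4, 86.0, 166 and 131 in SOD1G93A/Clec7a-KO (log2 −1.48 ± 0.57, adjusted p = 0.0447). Only the lowest Clec7a-KO library overlapped with the other group. This call was lost in 7 of the 14 fits without 1 library, namely SOD1G93A_2, SOD1G93A/Clec7a-KO_1, _2 or _4, nTg_2, or Clec7a-KO_2 or _4. The highest adjusted p was 0.120, without Clec7a-KO_2 (log2 −1.22). Of the others, Ccl12 stood at 222, 311, 240.5 and 400.4 in Clec7a-KO and at 187, 264, 440 and 583 in SOD1G93A/Clec7a-KO (log2 0.33 ± 0.48, adjusted p = 0.591). For both Ccl2 and Ccl12, SOD1G93A/Clec7a-KO_1 and _2 and Clec7a-KO_1 (numbers 2, 3 and 4) were the low libraries of their groups. SOD1G93A_1 (number 1) was the lowest of its own. The labels do not say whether these numbers mark a batch. Ccl7 had a log2 difference of −0.81 ± 0.66 (adjusted p = 0.329), and without SOD1G93A/Clec7a-KO_4 it passed as lower (log2 −1.64, adjusted p = 0.0490). Ccl8 (1.34 ± 1.03, adjusted p = 0.301) and Ccl24 (−0.34 ± 0.24, adjusted p = 0.268) did not pass.

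These calls depended in part on the scaling. With total UMIs alone in place of TMM factors, the median log2 fold change of all genes moved by −0.46 in the comparison of SOD1G93A with nTg, and the share of calls that were higher went from 59.8% to 20.4%. Ccl3 (log2 0.86), Ccl5 (2.44), Ccl6 (1.66), Ccl8 (3.77) and Ccl9 (1.19) were still higher, Ccl4 did not pass (0.85, adjusted p = 0.108) and Ccl24 was lower (−0.92, adjusted p = 0.0248). In SOD1G93A/Clec7a-KO against Clec7a-KO the median moved by −0.52 and the share of higher calls from 55.0% to 19.4%. There Ccl5 (log2 1.62) and Ccl6 (1.68) were still higher, and Ccl2 (−1.99) and Ccl24 (−0.85) were lower. Ccl3 (0.37), Ccl4 (0.51) and Ccl9 (0.38) no longer passed. With the Xist level as a covariate, Ccl4 (log2 1.43, adjusted p = 0.0887) and Ccl8 (3.80, 0.158) did not pass in SOD1G93A against nTg. Ccl2 (log2 −1.48, adjusted p = 0.0555) and Ccl4 (1.02, 0.0627) then did not pass in SOD1G93A/Clec7a-KO against Clec7a-KO. With the library number as a covariate, Ccl7 (log2 2.46) and Ccl12 (1.41) passed as higher and Ccl24 (−0.70) as lower in SOD1G93A against nTg. All SOD1G93A libraries (numbers 1, 5 and 6) come before all nTg libraries (8, 9 and 12). The number thus separates these groups fully, and the adjusted values rest on a slope taken from within the groups.

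**Figure D3:**
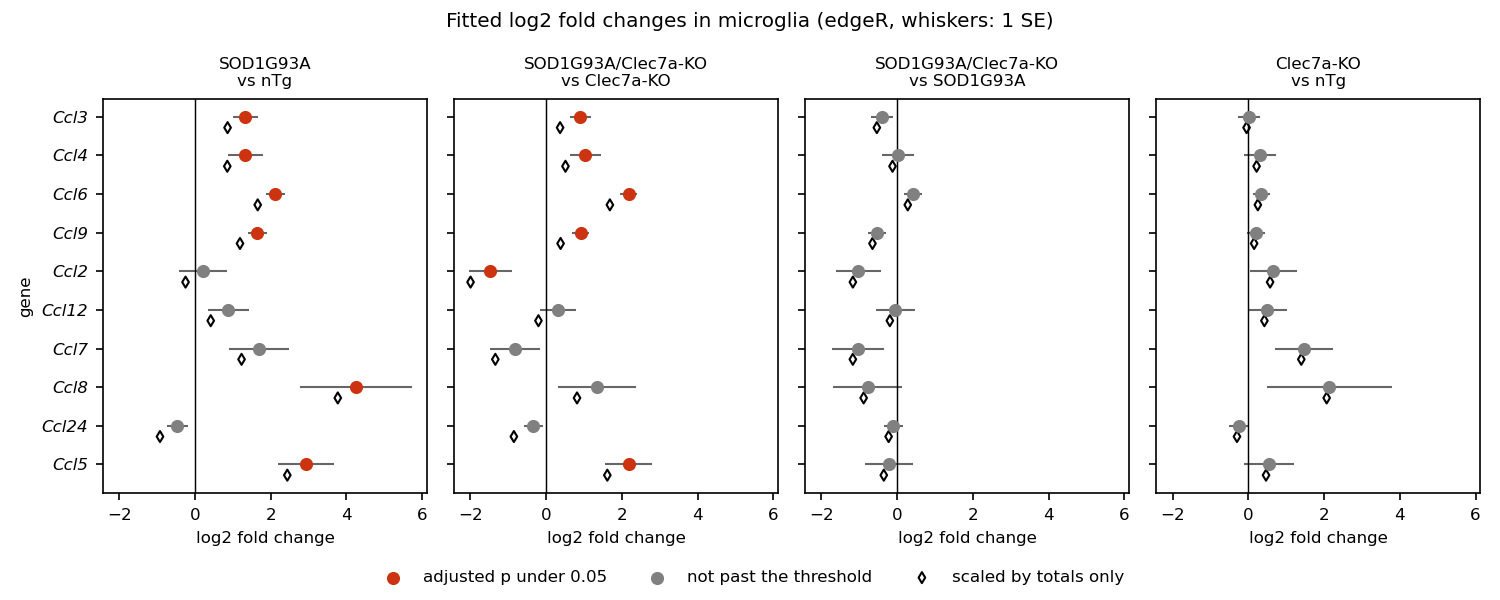
Log2 fold change in microglia from edgeR for each gene in 4 comparisons, with whiskers of 1 SE. Red marks an adjusted p under 0.05, and diamonds show the value when total UMIs alone set the scale. In the 2 comparisons that read the transgene Ccl6 lies at 2.12 and 2.19, and in the 2 that read the Clec7a knockout no gene is red.

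The loss of Clec7a was read in transgenic and in non-transgenic mice. Between SOD1G93A/Clec7a-KO and SOD1G93A no member passed in edgeR or in DESeq2, against 0.0181% of the 16614 genes (3 genes, with 1897 at an unadjusted p under 0.05). Ccl9 was the only member with an unadjusted p under 0.05. Its mean was 194 ± 61.2 normalised CPM (SD, n = 4) in SOD1G93A/Clec7a-KO and 281 ± 31.6 (n = 3) in SOD1G93A (log2 −0.54 ± 0.23, edgeR adjusted p = 0.431). Ccl6 went the other way, with 761 ± 110 (n = 4) against 572 ± 90.1 (n = 3) (log2 0.41 ± 0.23, adjusted p = 0.468). Ccl2 had 112 ± 45.4 (n = 4) against 228 ± 196 (n = 3) (log2 −1.03 ± 0.60, adjusted p = 0.479). Ccl4 was level within its error (log2 0.02 ± 0.43), and Ccl3 had a log2 difference of −0.41 ± 0.29. The log2 differences were −0.22 ± 0.63 for Ccl5, −1.03 ± 0.69 for Ccl7, −0.78 ± 0.92 for Ccl8, −0.05 ± 0.51 for Ccl12 and −0.10 ± 0.25 for Ccl24. The SEs of Ccl2, Ccl5, Ccl7, Ccl8 and Ccl12 were above 0.50 on the log2 scale. Differences as large as −1.03 for Ccl2 and −0.54 for Ccl9 did not pass. The lack of a call therefore does not exclude changes of such sizes in any member.

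Between Clec7a-KO and nTg no member passed in edgeR or DESeq2, against 0.0301% of the genes (405 at an unadjusted p under 0.05), and no member had an unadjusted p under 0.05. The log2 differences ran from −0.24 ± 0.26 for Ccl24 to 2.14 ± 1.65 for Ccl8. In the monocyte chemoattractant branch Ccl2 was at 0.66 ± 0.61, Ccl7 at 1.48 ± 0.76 and Ccl12 at 0.50 ± 0.52. Ccl3 was at 0.02 ± 0.30, Ccl4 at 0.31 ± 0.43 and Ccl5 at 0.54 ± 0.66, and the Ccr1 ligands Ccl6 and Ccl9 were at 0.35 ± 0.23 and 0.20 ± 0.23. The difference between the 2 transgene effects, with Clec7a and without it, was also tested. No gene passed in edgeR, members included (0% called, 330 genes at an unadjusted p under 0.05). Ccl7 (log2 −2.51 ± 1.03) and Ccl9 (−0.74 ± 0.33) were the members with an unadjusted p under 0.05, and Ccl6 was at 0.07 ± 0.33. The comparisons that share a group share its libraries.

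The share of microglia with at least 1 UMI was read after each cell had been thinned to 4000 UMIs, which left out 2.75% to 19.5% of the microglia of a library. Ccl6 was found in 35.5% ± 3.18 of the cells in nTg, 39.2% ± 6.32 in Clec7a-KO, 59.3% ± 5.78 in SOD1G93A and 64.3% ± 5.43 in SOD1G93A/Clec7a-KO (SD, n = 3, 4, 3 and 4). Ccl3 was already in most cells, at 67.1% ± 5.22, 68.3% ± 8.37, 90.8% ± 5.01 and 86.9% ± 4.37 in the same order, and Ccl4 at 69.5% ± 4.69, 72.9% ± 5.50, 90.5% ± 7.39 and 88.9% ± 6.04. Ccl5 was in 2.39% ± 0.626 of the cells in nTg, 2.84% ± 0.872 in Clec7a-KO, 14.4% ± 10.6 in SOD1G93A and 8.91% ± 4.99 in SOD1G93A/Clec7a-KO. Its SOD1G93A libraries stood at 2.83%, 23.7% and 16.6%, and SOD1G93A_1 lay within the nTg range of 1.80% to 3.05%. Without thinning Ccl6 was in 57.2% of nTg and 81.0% of SOD1G93A microglia, and Ccl3 in 73.3% and 94.7%.

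Ependymal cells, a class not known as a source of these genes, were read in the same way. In the thinned ependymal cells Ccl6 was found in 0.206% in nTg and 3.48% in SOD1G93A, Ccl3 in 2.34% and 15.4%, and Ccl4 in 4.60% and 24.6%. The median depth of a library was 5386 to 22115 UMIs in microglia and 4574 to 12072 UMIs in ependymal cells. The microglial shares lay above the ependymal ones in both groups. In SOD1G93A against nTg the exact permutation test over libraries gave p = 0.1, the smallest it allows, for Ccl3, Ccl4, Ccl6, Ccl8 and Ccl9. Between SOD1G93A/Clec7a-KO and Clec7a-KO the exact permutation p was 0.0286, also the smallest possible, for Ccl2, Ccl3, Ccl4 and Ccl6, and 0.286 after adjustment over all members and comparisons.

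Members differed in how their UMIs were spread over microglia. The 1% of microglia with most UMIs of a gene held, on average over libraries, 6.75% of the Ccl4 UMIs, 7.34% of Ccl3, 11.7% of Ccl6, 14.98% of Ccl9, 19.0% of Ccl12 and 23.9% of Ccl2. The same share was 65.4% for Ccl5, 82.9% for Ccl24, 94.1% for Ccl7 and 100% for Ccl8, the last over 10 libraries. Ccl3 and Ccl4 were thus spread over many microglia and Ccl5, Ccl7, Ccl8 and Ccl24 lay in few, though a gene with few UMIs reaches a high value by counting alone. Across cells of a library, Ccl3 and Ccl4 had a mean correlation of 0.656 (0.572 to 0.780 over 14 libraries), Ccl2 and Ccl12 of 0.228, Ccl6 and Ccl9 of 0.188, and Ccl6 and Ccl12 of −0.0393. Across the 14 libraries with group means removed, Ccl3 and Ccl4 had r = 0.939, Ccl3 and Ccl5 0.898, Ccl2 and Ccl12 0.881, and Ccl4 and Ccl9 −0.462. Ccl6 and Ccl9 had r = −0.419 there, opposite in sign to their mean across cells. The points of each correlation share library and depth, and these values are descriptions.

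The microglial clusters, made without the CC chemokine genes, held different members. Cluster 0 (9140 cells), led by the interferon and cytokine genes Cxcl10, Ifnb1 and Il1b, had the highest means for Ccl3 (4109 CPM), Ccl4 (9689 CPM), Ccl12 (674 CPM) and Ccl5 (135 CPM). Cluster 1 (7556 cells), led by Clec7a, Acod1 and Cxcl2, had the highest means for Ccl6 (802 CPM) and Ccl9 (288 CPM). Cluster 9 (11294 cells), led by the homeostatic genes P2ry12, Tmem119 and Crybb1, had Ccl6 at 172 CPM and Ccl2 at 328 CPM, near the 321 CPM of cluster 0. Cluster 2 (2781 cells), led by Gpnmb and Spp1, kept Ccl6 at 552 CPM and had the lowest means of Ccl3 (759 CPM), Ccl4 (1247 CPM), Ccl2 (15.8 CPM) and Ccl12 (40.2 CPM). Ccl6 lay between 398 and 802 CPM in 6 clusters and at 168 and 172 CPM in the clusters led by homeostatic genes (6 and 9). These means rest on different libraries, 12 for cluster 0, 13 for cluster 9 and 7 for clusters 1 and 2. Within SOD1G93A and within SOD1G93A/Clec7a-KO alone, cluster 0 again had the highest mean of Ccl3 and Ccl12, cluster 1 that of Ccl6 and Ccl9, and cluster 2 the lowest of Ccl2, Ccl3, Ccl4 and Ccl12. The leading cluster of Ccl5 and Ccl2 moved with the group: in SOD1G93A cluster 3 had the highest Ccl5 (189 against 159 CPM in cluster 0), and in Clec7a-KO Ccl2 was at 643 CPM in cluster 0 and 353 CPM in cluster 9.

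**Figure D4:**
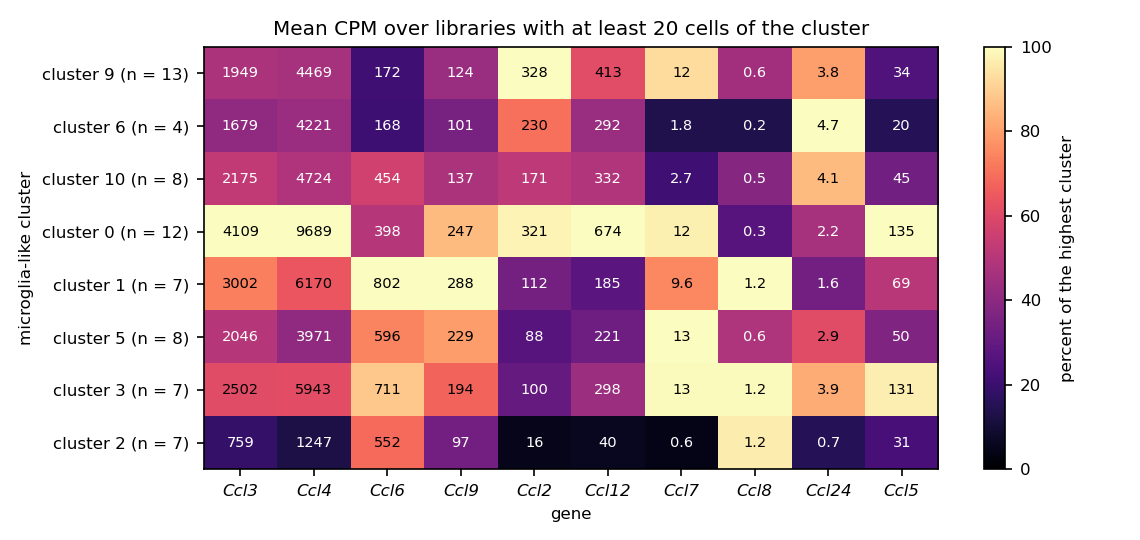
Mean CPM of each gene in the 8 microglial clusters, over the libraries with at least 20 cells of the cluster, with colour as a percentage of the gene's highest cluster. Ccl3, Ccl4, Ccl5 and Ccl12 peak in cluster 0, Ccl6 and Ccl9 in cluster 1, and cluster 2 has the lowest Ccl2, Ccl3, Ccl4 and Ccl12.

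The clusters had different shares in the groups. Cluster 0 made up 1.23% of the microglia in nTg, 2.23% in Clec7a-KO, 30.3% ± 5.61 in SOD1G93A (SD, n = 3) and 26.4% ± 14.3 in SOD1G93A/Clec7a-KO (n = 4). Cluster 1, which Clec7a itself leads, made up 0.348%, 0.328%, 35.2% ± 13.6 and 9.69% ± 4.79 in the same order, so its size is no measure of the knockout's effect. Cluster 9 and cluster 6, which Xist leads, split the nTg and Clec7a-KO microglia by library. Cluster 9 made up 3.74%, 6.13% and 97.6% of the microglia in the nTg libraries, from lowest to highest, and 5.56% to 96.1% (median 94.1%) in Clec7a-KO. Cluster 6 made up 0.0519%, 91.6% and 92.7% in nTg and 0% to 92.7% (median 0.204%) in Clec7a-KO. In the transgenic groups cluster 9 made up 5.66% ± 4.91 in SOD1G93A and 3.58% ± 3.33 in SOD1G93A/Clec7a-KO, and cluster 6 made up 0% and 1.58% ± 3.17.

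In cluster 9 Ccl6 was at 137 ± 27.9 CPM in nTg, 151 ± 37.0 in Clec7a-KO, 174 ± 38.0 in SOD1G93A and 234 ± 71.4 in SOD1G93A/Clec7a-KO. Ccl3 in the same cluster was at 1462 ± 331, 1602 ± 447, 2740.1 ± 861 and 2108 ± 233 CPM. In cluster 0 Ccl3 ran from 6093 ± 236 CPM in nTg (n = 2) to 4499 ± 1043 in Clec7a-KO, 4119 ± 1266 in SOD1G93A and 2817 ± 465 in SOD1G93A/Clec7a-KO. Ccl6 in cluster 0 was near 400 CPM in each group (412, 399, 343 and 431 CPM). Ccl2 in cluster 0 was at 643 ± 452 CPM in Clec7a-KO and 147 ± 41.9 in SOD1G93A/Clec7a-KO. In cluster 1 Ccl6 was at 685 ± 52.5 CPM in SOD1G93A and 890 ± 38.6 in SOD1G93A/Clec7a-KO. These values within clusters were not tested, and each group's cells fill the clusters unequally.

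Border-associated macrophages were few, at 13 to 75 cells per library. Between SOD1G93A and nTg no member passed in edgeR or DESeq2, against 0.203% of 3446 genes (229 at an unadjusted p under 0.05). Ccl7, their typical member, stood at 264, 810.3 and 671 CPM in nTg, 839, 680 and 219 in SOD1G93A, 150, 279, 893 and 428 in Clec7a-KO, and 819, 530.4, 725 and 468 in SOD1G93A/Clec7a-KO. The 4 groups overlapped, and the log2 difference between SOD1G93A and nTg was −0.00 ± 0.55. Ccl2 stood at 264, 837 and 374 CPM in nTg and 1199, 839 and 554 in SOD1G93A (log2 0.81 ± 0.53). Ccl24 stood at 270.1, 113 and 187 CPM in nTg and 284, 72.8 and 92.0 in SOD1G93A (log2 −0.53 ± 0.44).

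Ccl8, Ccl9, Ccl12 and Ccl6 were the members with an unadjusted p under 0.05 in these cells. The 3 nTg libraries held 1, 0 and 0 Ccl8 UMIs in border-associated macrophages and the SOD1G93A libraries 5, 145 and 25 (edgeR adjusted p = 0.453). The Ccl8 levels were 104, 0, 14.97 and 236 CPM in Clec7a-KO and 244, 203, 215 and 17.7 in SOD1G93A/Clec7a-KO, so libraries at 0 were found in nTg and Clec7a-KO only. The log2 differences between SOD1G93A and nTg were 1.53 ± 0.58 for Ccl9, 1.12 ± 0.51 for Ccl12 and 0.88 ± 0.42 for Ccl6 (adjusted p from 0.660 to 0.736). In SOD1G93A/Clec7a-KO against Clec7a-KO, also with 0.203% of genes called and 386 at an unadjusted p under 0.05, the strongest member was Ccl5 (log2 3.53 ± 0.83, edgeR adjusted p = 0.102).

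For Ccl5, Ccl7 and Ccl24 the classes that held the UMIs had different mean shares in the 4 groups. T and NK cells held 49.5% ± 23.7 of the Ccl5 UMIs in nTg (SD, n = 3), 44.4% ± 16.4 in Clec7a-KO (n = 4), 14.6% ± 11.9 in SOD1G93A (n = 3) and 18.4% ± 11.98 in SOD1G93A/Clec7a-KO (n = 4). The T and NK cells were themselves a larger share of cells in the transgenic groups, at 1.19% ± 0.264 in SOD1G93A and 0.236% ± 0.0878 in nTg. Their Ccl5 level was 4935 ± 2310 CPM in nTg and 2168 ± 84.1 CPM in SOD1G93A, from 6 to 19 cells per nTg library, too few for a fit. Border-associated macrophages held 64.0% ± 9.11 of the Ccl7 UMIs in nTg and 27.5% ± 18.2 in SOD1G93A, and 29.4% ± 12.8 and 19.1% ± 2.79 of the Ccl24 UMIs. These shares were not tested between groups.

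In endothelial cells, 4 of the 7 members that could be tested were higher in SOD1G93A than in nTg, against 1.07% of genes called in either direction and 1.05% higher. The count was 7 with DESeq2, with no filter or without Clec7a-KO_3. The 4 were Ccl3 (5.98 and 82.9 CPM in nTg and SOD1G93A, log2 3.78 ± 0.52), Ccl4 (10.9 and 145 CPM, 3.73 ± 0.60), Ccl6 (0.760 and 16.4 CPM, 4.29 ± 0.46) and Ccl9 (0.363 and 7.07 CPM, 4.13 ± 0.60). The same 4 genes were higher in SOD1G93A/Clec7a-KO than in Clec7a-KO, by log2 2.43 to 3.07 (0.869% of genes called, 0.824% higher). In ependymal cells 6 of 7 tested members were higher in SOD1G93A (1.13% called): Ccl3, Ccl4, Ccl5, Ccl6, Ccl9 and Ccl12. In both classes a gene low in nTg, as Ccl6 and Ccl9 were in endothelial cells, could pass the expression filter through the transgenic libraries alone. Which members were tested therefore depends in part on the groups compared. In mural cells neither of the 2 tested members passed in edgeR (0.107% called, 365 genes at an unadjusted p under 0.05). In each library endothelial and ependymal levels of these genes lay below those in microglia. Microglia held 29.5% of all UMIs in nTg and 79.5% in SOD1G93A. The part of free microglial RNA in these differences was not tested.

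In astrocytes all 7 members that could be tested were higher in SOD1G93A, against 32.1% of genes called. The 12 microglial markers summed to 2651 ± 463 CPM in nTg astrocytes (SD, n = 3) and to 8549 ± 6266 CPM in SOD1G93A (n = 3), with 12 of 12 at 1 CPM or more. Astrocytic Ccl2 had a mean of 0.609 CPM in nTg and 163 CPM in SOD1G93A (log2 7.94 ± 0.81, edgeR adjusted p = 5.3e-06), and 7.39 CPM in SOD1G93A/Clec7a-KO. The nTg libraries held only 2, 1 and 4 of these Ccl2 UMIs, against 29, 172 and 806 in SOD1G93A. The size of the difference thus rests on few nTg UMIs, and Ccl2 could pass the expression filter through the SOD1G93A libraries alone. One cell of SOD1G93A_3 held 624 of the 806 Ccl2 UMIs of that library's astrocytes, and 232 of its 245 Ccl7 UMIs. That cell had 101 UMIs of astrocyte markers, 55 of microglial markers and 17 of mural markers. The astrocyte genes Gfap and Aqp4 had 87 and 3 UMIs in it, and Ccl4 had 1. One cell of SOD1G93A_2 held 92 of 172 Ccl2 UMIs, with 259 UMIs of astrocyte and 31 of microglial markers. In SOD1G93A_1 the top cell held 11 of 29 Ccl2 UMIs, with 12 UMIs of astrocyte markers, 825 of microglial markers and 88 of Ccl4. Astrocytic Ccl2 was lower in SOD1G93A/Clec7a-KO than in SOD1G93A (log2 −3.96 ± 0.62, adjusted p = 0.0396, 0.0155% of genes called). Without the cell with most Ccl2 UMIs in each library, a check chosen after seeing the data, this call was lost (log2 −2.79, adjusted p = 0.313), while the difference from nTg stayed (log2 7.02). It was also lost in 12 of the 14 fits that left out 1 library (all but those without SOD1G93A_1 or Clec7a-KO_1), at an adjusted p of up to 0.392 without SOD1G93A/Clec7a-KO_2. In oligodendrocyte precursors Ccl2 was higher in SOD1G93A than in nTg (log2 2.26 ± 0.47, adjusted p = 0.0256, 0.931% of genes called).

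Summed over all kept cells of a library, each of the 10 members was higher in SOD1G93A than in nTg by edgeR, against 42.9% of 22909 genes in either direction and 21.7% higher. Ccl6 went from a mean of 52.0 to 410 CPM (log2 3.70 ± 0.25, adjusted p = 4.1e-07), Ccl3 from 541 to 2599 CPM (2.99 ± 0.37) and Ccl4 from 1056 to 5065 CPM (2.99 ± 0.50). The count was 9 with no filter, with the 2 groups alone or with a term for library number, and 8 to 10 with 1 library left out (8 without SOD1G93A_3). Ccl2 went from 71.8 to 167 CPM (1.95 ± 0.60) and Ccl24 from 2.03 to 2.33 CPM (0.88 ± 0.34, adjusted p = 0.0483). The fitted values, on the TMM scale, lie above the log2 ratios of the plain CPM for each of these 5 genes. Between SOD1G93A/Clec7a-KO and Clec7a-KO, 6 members were higher (47.2% of genes called, 24.0% higher): Ccl3, Ccl4, Ccl5, Ccl6, Ccl9 and Ccl12. In such sums more cells of a class and more RNA per cell cannot be told apart.

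The ratios of Ccl4 to Ccl3 and of Ccl9 to Ccl6 within microglia marked 3 libraries, while that of Ccl12 to Ccl2 did not. Ccl4 UMIs per Ccl3 UMI were 1.44 in SOD1G93A_1, between 1.83 and 2.12 in 10 libraries, and 2.96, 3.06 and 3.26 in the libraries numbered 13, 15 and 16. The same ratio over endothelial and ependymal cells was 1.44 in SOD1G93A_1 and 2.94, 2.84 and 3.11 in those 3 libraries. Ccl9 UMIs per Ccl6 UMI were 0.189, 0.170 and 0.270 in the 3 libraries and 0.322 to 0.955 in the others. Over endothelial and ependymal cells this second ratio was 0.303, 0.0968 and 0.375 in those 3 and 0.337 to 1.80 in the others, which overlap. Ccl12 UMIs per Ccl2 UMI in microglia were 2.66, 4.44 and 0.867 in the libraries numbered 13, 15 and 16 and 0.672 to 3.07 in the others. Libraries 13 and 15 are SOD1G93A/Clec7a-KO and 16 is Clec7a-KO. All 3 thus carry the knockout, as do 5 of the other 11 libraries, and the part of the knockout in these ratios was not tested. Without these 3 libraries, a choice made after seeing the data, Ccl3, Ccl4, Ccl5, Ccl6, Ccl8 and Ccl9 were called between SOD1G93A and nTg, as with all libraries (adjusted p of at most 0.0458, for Ccl8). Between SOD1G93A/Clec7a-KO and Clec7a-KO only Ccl6 (log2 2.33) and Ccl9 (log2 1.06, adjusted p = 0.000390) then passed, with 2 and 3 libraries. Ccl2 (−1.78, adjusted p = 0.0838), Ccl3 (0.55, 0.176), Ccl4 (0.48, 0.342) and Ccl5 (1.21, 0.207) did not.

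**Figure D5:**
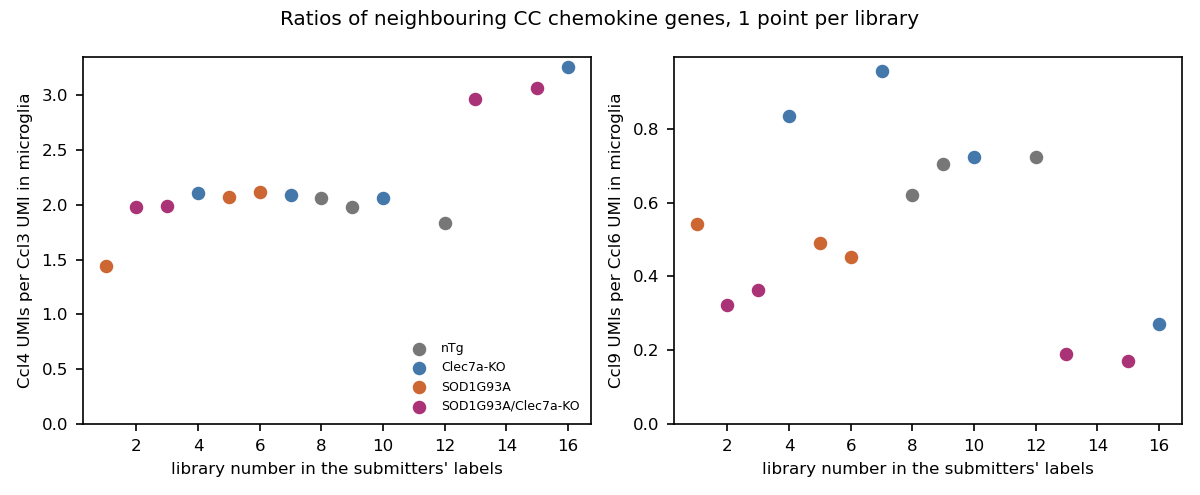
Ratio of Ccl4 to Ccl3 UMIs and of Ccl9 to Ccl6 UMIs in microglia, plotted against the library number in the labels, 1 point per library coloured by group. The libraries numbered 13, 15 and 16 lie highest for Ccl4 over Ccl3 (2.96 to 3.26) and lowest for Ccl9 over Ccl6 (0.170 to 0.270).

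Related genes in microglia were read from 4 gene lists, on the TMM scale. Of 12 other CC ligands 3 were expressed enough to be tested. Ccl22, a ligand of Ccr4, was higher in SOD1G93A than in nTg (log2 2.94 ± 0.62, edgeR adjusted p = 0.00246), against 33.1% of all genes called in either direction. It was also higher in SOD1G93A/Clec7a-KO than in Clec7a-KO (2.07), against 46.8% of all genes. Ccl27a was called in the latter (0.78), and the test of the difference between the 2 transgene effects called no gene in edgeR, Ccl27a included (330 genes at an unadjusted p under 0.05). Of the list of CC receptors, the receptor-like gene Ccrl2 was higher (0.93 ± 0.31), and Ccr6 (−1.46 ± 0.24) and Ccr3 (−3.30 ± 0.71) were lower in SOD1G93A. Ccrl2, Ccr6 and Ccr3 were called in the same directions in SOD1G93A/Clec7a-KO against Clec7a-KO (Ccrl2 0.99, Ccr6 −0.91, Ccr3 −4.30).

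Of 14 NF-kB genes, whose products act upstream of many chemokine genes, only Chuk was called in SOD1G93A against nTg, as lower (−0.52) against 33.1% of all genes called, and the list's median log2 fold change was −0.02 against 0.01 for all genes. Between SOD1G93A/Clec7a-KO and Clec7a-KO Chuk was lower (−0.56) and Ikbkb higher (0.24, adjusted p = 0.0440), 2 of 14 against 46.8% of all genes. Of 22 genes known to respond to warm dissociation, none was higher and 10 were lower in SOD1G93A (13.3% of all genes tested were lower), among them Klf2 (−2.34), Klf4 (−1.63), Jun (−1.28) and Egr1 (−1.16), and the list's median was −0.78. Between SOD1G93A/Clec7a-KO and Clec7a-KO 16 of the 22 were lower (median −1.07), against 21.0% of all genes. Cords were dissociated at 37°C, per the labels. The part of dissociation in the chemokine levels was not tested. In the 2 comparisons of the Clec7a knockout no gene of the 4 lists was called by edgeR.

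The genes most like each member were sought over the mean levels of the 25 clusters, among genes with a mean of at least 10 CPM, with the cells of all libraries pooled. Ccl3 was most like C3ar1 (r = 0.986) and Ccl4 most like Bcl2a1b (0.985). Ccl6 was most like Tyrobp (0.987), Ccl9 most like Slamf9 (0.994) and then Fcrls (0.986), and Ccl12 also most like Slamf9 (0.966). Ccl8 was most like Mgl2 (0.944) and Cbr2 (0.940), and Cbr2 stood among the nearest genes of Ccl7 (0.815) and Ccl24 (0.838) too. Ccl5 was nearest to Dusp5 (0.899) and Cd69 (0.898), and Ccl2 to Trf (0.911). The clusters span all classes, so a high r can reflect a shared class alone. Across the microglia of the 14 libraries, with group means removed, Ccl4 was nearest to Hyou1 (0.941) and Ccl5 to AW011738 (0.973). Ccl3 was nearest to Bcl2a1b there (0.930). Each of these is the highest of many correlations over 14 points. Ccl8, which had few UMIs, reached 0.915 with Trim26 in the same way.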

How the data were processed

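Single-cell RNA was measured in 14 libraries with Chromium 3′ chemistry (version 3.1). The authors deposited raw counts of UMIs per gene and barcode. The submitters' processing notes name Cell Ranger, Seurat, DESeq2 and mm10; the rule for calling cells and the use of strand in counting are not given in the sources used here. Barcodes with at least 500 genes, 1000 UMIs and at most 15% mitochondrial UMIs were kept (7127 removed for depth, 4963 for mitochondrial share), and 6784 doublets were removed by Scrublet score at 0.8% per 1000 barcodes. Cells were clustered without 25 Ccl genes (scanpy 1.11.5, 2000 variable genes, 30 components, 15 neighbours, Leiden resolution 1, no integration), giving 25 clusters named from marker genes. Free RNA was not corrected.

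For each class, the UMIs of a library were added up and tested with edgeR 4.0.16 (R 4.3.3; TMM, filterByExpr, quasi-likelihood, all 14 libraries, a term per group, two-sided, Benjamini-Hochberg over all genes, adjusted p under 0.05). The SE is the log2 fold change over the square root of F. Classes needed 20 cells in each library; border-associated macrophages were fitted with at least 10, since nTg_3 held 13, and T and NK cells could not be fitted. The members, markers and gene lists were chosen with earlier results of these data known. All 10 members are named in each of the 4 comparisons of groups in microglia (the rule was every comparison; elsewhere those called or singled out are named), and of each list up to 6 called genes, apart from a listed gene that is not reported here. Exact permutation tests over libraries compared shares of cells, two-sided. The edgeR step was tested on simulated data. Alternatives were DESeq2 1.42.0, RLE factors, no filter, other covariates, cell filters and clusterings, and leaving out each library. Intervals cover counting error only. No columns were left out (0).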

Additional observations from a re-analysis of the deposited data

Results flagged for a closer look

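Each member's level in microglia and in border-associated macrophages, and the share of microglia with its UMIs, was checked in the groups of 4 libraries for a library far from the other 3. Of 60 such groups 3 held one, all in border-associated macrophages, where libraries hold few cells. Chance marks about 1 in 20 groups, which is the share found here. Ccl24 stood at 53.0 CPM in SOD1G93A/Clec7a-KO_4 against 92.8 to 98.7 CPM in the other 3 libraries of that group, from 22 cells. Ccl3 stood at 2506 CPM in the same library against 1670.4 to 1687 CPM. Ccl4 stood at 2885 CPM in Clec7a-KO_4 against 1741 to 1785 CPM, from 38 cells.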

How the results depend on the processing

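Of 529 log2 fold changes of members under other settings, 489 kept their direction and side of the threshold, 17 changed sign, 17 lost and 6 gained a call. The log2 values with a changed sign, none of them called in either setting, included Ccl2 in SOD1G93A against nTg with total UMIs (−0.25). In SOD1G93A/Clec7a-KO against SOD1G93A they were Ccl4 with no filter (−0.045), with Xist as covariate (−0.035), with these groups alone (−0.0047), with the library number (−0.46), with total UMIs (−0.12) and without numbers 13, 15 and 16 (−0.76), Ccl24 with the library number (0.041), with clusters made with CC genes (0.012) and without those 3 (0.15), and Ccl12 with such clusters (0.016). In Clec7a-KO against nTg it was Ccl3 with these groups alone (−0.00041) or total UMIs (−0.046), and in SOD1G93A/Clec7a-KO against Clec7a-KO it was Ccl12 with total UMIs (−0.20) or without those 3 (−0.18). Leaving out 1 library gave −0.70 to 0.70 for Ccl2 in SOD1G93A against nTg, −0.16 to 0.18 for Ccl3 in Clec7a-KO against nTg and −0.028 to 0.55 for Ccl12 in SOD1G93A/Clec7a-KO against Clec7a-KO. In SOD1G93A/Clec7a-KO against SOD1G93A it gave −0.35 to 0.35 for Ccl4, −0.73 to 0.42 for Ccl5, −1.90 to 0.17 for Ccl8, −0.53 to 0.58 for Ccl12 and −0.25 to 0.029 for Ccl24. The cause was not tested. Counts of members called in microglia stayed within 1.5 times except without numbers 13, 15 and 16 (2 against 6 in SOD1G93A/Clec7a-KO against Clec7a-KO, with fewer libraries). With Xist as covariate they were 4 in both transgene comparisons. Endothelial counts were 7 with DESeq2 or no filter and 4 to 7 with 1 library left out (7 without Clec7a-KO_3). Border-associated macrophages gave 2 with no filter and 1 with the 2 groups alone.

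Whether replicate numbers pair the libraries was not settled. Of 19 same-numbered pairs 9 had a correlation over 0.1 (−0.17 to 0.39), and pairs with different numbers ran from −0.49 to 0.50. With a replicate block 7 members were called between SOD1G93A and nTg (Ccl7 added, log2 1.66, adjusted p = 0.0126) and 6 in SOD1G93A/Clec7a-KO against Clec7a-KO. Under the block Ccl4 was −0.23 in SOD1G93A/Clec7a-KO against SOD1G93A, Ccl3 was −0.11 in Clec7a-KO against nTg, and astrocytic Ccl2 in SOD1G93A/Clec7a-KO against SOD1G93A was −3.45 (adjusted p = 0.158).

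Microglia held less of the UMIs with doublets kept (Ccl2 90.2%, Ccl3 92.8%, Ccl4 93.2%, Ccl9 90.9%, Ccl12 90.9%) or with clusters made with CC genes (Ccl3 95.9%, Ccl4 97.0%, Ccl6 86.9%, Ccl9 92.5%, Ccl12 93.3%). In the latter a cluster of 6719 cells, led by Gpnmb, Lyz2 and Apoc4, stayed unnamed though microglia were its closest class. Its UMIs were therefore not counted as microglial. Of 80 group shares of cells, 58 moved by more than 1 SD at 2000 UMIs or unthinned. Depth limits Ccl8 and Ccl24, which had 633 and 1547 UMIs over all microglia (1.03 and 2.51 CPM).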
